A study of Mus musculus with 12 samples.

Results

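Astrocytes read the activity of their neighbours through G protein-coupled receptors for noradrenaline, purines, lipids and peptides. The 9 receptor genes described here were chosen by name, from 24421 entries in the expression table, and all 9 were found. They are the adrenergic receptors Adra1a, Adra1b, Adra2a and Adrb1, the nucleotide receptor P2ry1, the adenosine receptors Adora1 and Adora2b, the sphingosine-1-phosphate receptor S1pr1 and the endothelin receptor Ednrb. All 9 passed the filter on low values, a normalized count of at least 10 in at least 3 libraries, which 13108 entries passed.

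The libraries came from mouse spinal cord cells sorted as astrocytes by an Aldh1l1-GFP reporter, which cKO and control mice shared. The groups were male cKO, male control, female cKO and female control, each with 3 labelled libraries, and the study's title names the homeobox gene Nkx6.1 and sex-specific regulation. The labels give neither the Cre driver nor an age, and they do not say that replicates were separate animals. Every p-value therefore measures the spread of these libraries alone, which may be technical. Male libraries carry the lower library numbers and female libraries the higher ones, so sex and library numbering cannot be told apart.

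The library labelled male cKO replicate 2 repeated female cKO replicate 2. The chi-square of their read counts, divided by its degrees of freedom, was 1.056, against 15.24 to 145.4 in the other 65 pairs, where sampling noise alone gives about 1. It also held 3546 reads of Xist and 0 of Y-linked genes. The pair was counted as 1 sample, under its female label, which left 11 libraries with 2 male cKO, 3 male control, 3 female cKO and 3 female control. Depth was 2246412 to 9054934 reads in genes per library, and the ribosomal precursor Rn45s took 20.9% to 40.6% of them. The targeted gene checked the genotype weakly. Nkx6-1 had 0 reads in cKO replicates 1 and 2, 18 reads in male cKO replicate 3 and 19 in female cKO replicate 3, against 2 to 19 reads in control libraries. As depth differed, the normalized counts were 25.6 in male and 28.3 in female cKO replicate 3, against 1.51 to 15.2 in control libraries. Both cKO replicate 3 libraries were thus above every control for the targeted gene.

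The sort was checked against marker lists. All 20 astrocyte markers were present, and their mean log2 level was 10.70 and 10.94 in male cKO libraries, against 9.13, 8.60 and 9.98 in male controls. In females it was 9.80, 10.77 and 9.93 in cKO libraries, against 10.69, 8.85 and 10.64 in controls. Male control replicate 2 and female control replicate 2 thus had the lowest marker levels, and Rn45s took 21.2% and 20.9% of their reads. Transcripts of other cells were present. The myelin gene Mbp was abundant, at 43566 to 405303 normalized counts over the 12 libraries. The endothelial gene Cldn5 had 54.0 to 264, the microglial gene C1qa 16.3 to 173 and the neuronal gene Snap25 218 to 1788. The astrocyte gene Aqp4 had 1334 to 8529. Those 2 control libraries held 43566 and 53171 counts of Mbp, 70.1 and 54.0 of Cldn5, 16.3 and 65.1 of C1qa, and 219 and 218 of Snap25. Their mean log2 levels of oligodendrocyte markers, 11.86 and 11.49, were the highest. Aldh1l1 had 131 and 142 counts in male cKO libraries, against 157, 32.1 and 156 in male controls. In females it had 171, 295 and 92.4, against 235, 139 and 268. In such bulk samples fewer astrocytes, less RNA per astrocyte and a technical difference between libraries cannot be told apart.

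As background, α1-adrenergic receptors couple to Gq and release calcium from internal stores, α2 receptors couple to Gi and lower cyclic AMP, and β receptors couple to Gs and raise it. Among purine receptors P2Y1 is a Gq-coupled receptor for ADP, the adenosine A1 receptor couples to Gi, and the A2B receptor couples to Gs and needs higher adenosine levels. S1P1 is a Gi-coupled receptor for a blood-borne lipid. The endothelin B receptor is a classical astrocyte receptor that couples to Gq and Gi and is engaged in injured nervous tissue.

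Per kb of exons, Ednrb and S1pr1 were the most abundant of the 9 and Adra1a and Adra1b were the least. Control means were 238 normalized counts per kb for Ednrb, 190.2 for S1pr1, 55.7 for Adora1, 28.9 for P2ry1, 22.7 for Adora2b, 15.4 for Adra2a, 7.25 for Adrb1, 5.46 for Adra1b and 4.04 for Adra1a. Neighbours in this order were not always separable. Ednrb was above S1pr1 in 8 of 11 libraries, P2ry1 above Adora2b in 8, Adrb1 above Adra1b in 5 and Adra1b above Adra1a in 7. S1pr1 was above Adora1 in 10 libraries, Adora1 above P2ry1 in 10, Adora2b above Adra2a in 11 and Adra2a above Adrb1 in 9.

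Set against their families, the members were the leading genes in some cases and not in others. Ednrb stood at 364 ± 126 normalized counts per kb in cKO libraries and 238 ± 113 in controls (SD, n = 5 and 6), against 51.6 ± 35.3 and 32.6 ± 12.6 for the other endothelin receptor gene, Ednra. Adora1 was the highest adenosine receptor gene, while Adora2a averaged 1.08 per kb in cKO libraries and 1.76 in controls. S1pr1 was exceeded by the lysophosphatidate receptor gene Lpar1, at 443 ± 211 per kb in cKO libraries and 370.1 ± 132 in controls, and oligodendrocytes are a known source of Lpar1. P2ry1, at 32.4 ± 6.87 per kb in cKO libraries and 28.9 ± 14.1 in controls, was exceeded by the microglial gene P2ry12, at 99.8 ± 51.5 and 85.5 ± 23.9. P2rx7 stood near or above P2ry1, at 32.4 ± 9.04 and 39.9 ± 15.8, and P2rx4 near it, at 25.9 ± 20.5 and 30.0 ± 9.47. Adra2b and Adrb3 had 0 reads in each of the 11 libraries, where 3 reads would be 1.25 to 6.43 normalized counts depending on the library, and Adra1d had at most 1 read.

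**Figure D1:**
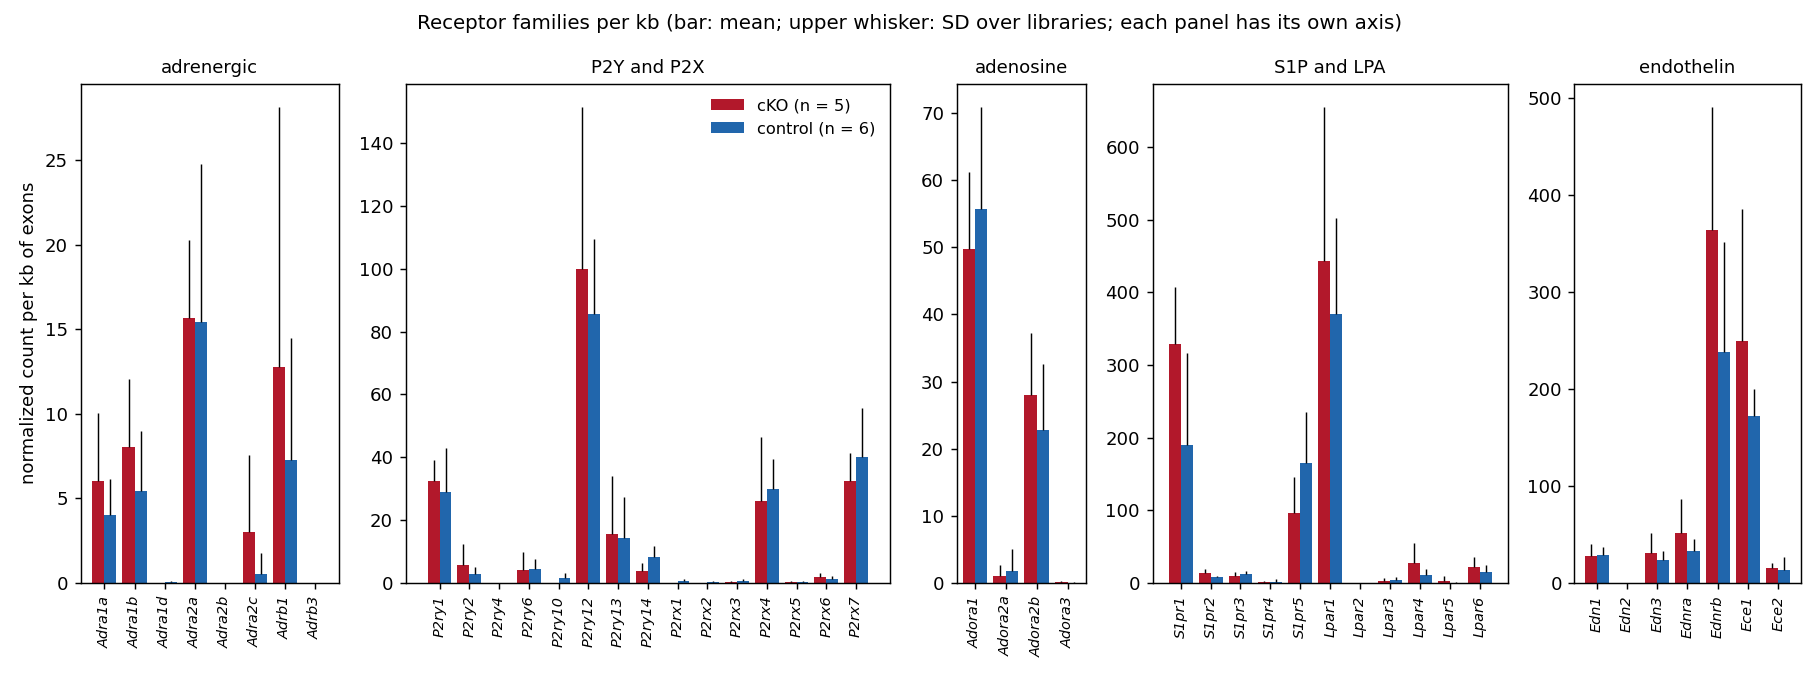
Normalized counts per kb of exons for the adrenergic, nucleotide, adenosine, lysophospholipid and endothelin families, as means over 5 cKO (red) and 6 control (blue) libraries with upper whiskers of 1 SD, each panel on its own axis from 0. Ednrb and S1pr1 reach 364 and 329 per kb in cKO libraries, while no adrenergic receptor plotted averages above 15.7.

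Adra1a (chr14:66635251-66771168, plus strand, GRCm38) had 71.7 and 71.2 normalized counts in male cKO libraries, against 18.6, 14.6 and 32.1 in male controls. Female cKO libraries had 19.5, 27.0 and 17.9, against 53.5, 16.7 and 30.5 in female controls. Both male cKO libraries were above all male controls, and the female groups overlapped. The repeated library, labelled male cKO but counted as female, held 37.4 and is no evidence on males. The log2 fold change was 1.74 ± 0.81 in males and -0.49 ± 0.73 in females (limma, ± SE), with adjusted p = 0.489 and 0.999.

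Adra1b (chr11:43774606-43901210, minus strand), which signals through the same G protein, had 19.6 and 17.1 normalized counts in male cKO libraries, against 17.1, 6.67 and 21.4 in male controls. In females the values were 28.5, 50.2 and 20.9 in cKO libraries, against 40.0, 16.7 and 8.89 in controls. The groups overlapped in both sexes. Its log2 fold change was 0.57 ± 0.65 over both sexes, with a 95% interval of -0.78 to 1.92.

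Adra2a (chr19:54044151-54048982, plus strand) is the member that inhibits cyclic AMP on noradrenaline. Its normalized counts were 85.3 and 71.2 in male cKO libraries, against 111, 52.1 and 32.1 in male controls, and 41.1, 79.1 and 101 in female cKO libraries, against 98.4, 22.3 and 132 in female controls. Controls of either sex spanned the whole range of the cKO libraries. The log2 fold change over both sexes was 0.25 ± 0.50, and it was -0.14 without female control replicate 2.

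Adrb1 (chr19:56722199-56733113, plus strand), the Gs-coupled β1 receptor, was the sparsest member by its lowest value, 3 reads in male control replicate 2. Male cKO libraries had 117 and 31.3 normalized counts, against 17.1, 1.25 and 15.0 in male controls. Female cKO libraries had 4.87, 19.3 and 16.4, against 62.1, 8.91 and 24.1 in female controls. Both male cKO libraries were above all male controls. The repeated library, labelled male cKO but counted as female, held 10.4, below male control replicates 1 and 3. The log2 fold change was 2.83 ± 1.16 in males (limma adjusted p = 0.420) and -0.97 ± 1.04 in females (adjusted p = 0.999). With 1 library left out in turn, the male value ran from 1.86, without male control replicate 2, to 3.77, without male cKO replicate 3. It was 1.90 without male cKO replicate 1. The fits without a male cKO library keep only 1 library in that group. With the repeated library, counted elsewhere as female, included under its male label, the male value was 2.02.

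P2ry1 (chr3:61002795-61008982, plus strand) had 159 and 114 normalized counts in male cKO libraries, against 92.0, 87.6 and 186 in male controls. Female cKO libraries had 178, 135 and 109, against 113, 56.2 and 209 in female controls. The highest value of each sex was a control, and the groups overlapped. The log2 fold change over both sexes was 0.28 ± 0.37, with a 95% interval of -0.50 to 1.05. An antisense gene overlaps P2ry1, and without strand information their reads cannot be told apart.

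Adora1 (chr1:134199223-134235431, minus strand) was the steadiest member. Male cKO libraries had 277 and 187 normalized counts, against 251, 478 and 236 in male controls. Female cKO libraries had 350.1, 345 and 279, against 318, 353 and 299.6 in female controls. It was the only member with a negative log2 fold change over both sexes, -0.21 ± 0.26, with a 95% interval of -0.74 to 0.32. The 95% interval in females was -0.71 to 0.71 around 0.00, and the gene overlaps Mybph on the other strand.

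Adora2b (chr11:62248984-62266453, plus strand), the Gs-coupled adenosine receptor, had 58.0 and 35.6 normalized counts in male cKO libraries, against 50.8, 24.6 and 36.4 in male controls. In females it had 39.0, 48.2 and 77.5 in cKO libraries, against 52.9, 19.5 and 67.3 in controls. The groups overlapped in both sexes, with near-equal log2 fold changes of 0.34 ± 0.73 in males and 0.35 ± 0.66 in females. The female value was -0.18 without female control replicate 2.

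S1pr1 (chr3:115710433-115715072, minus strand) had 1308 and 1147 normalized counts in male cKO libraries, against 398, 304 and 589 in male controls. Female cKO libraries had 868, 994 and 699, against 1219, 165 and 799.9 in female controls. Both male cKO libraries were above all male controls, while the female groups overlapped. The repeated library, labelled male cKO but counted as female, held 959 and is no evidence on males. S1pr1 had the smallest unadjusted p of the 9 over both sexes, 0.0243, with a log2 fold change of 1.10 ± 0.43 and a limma adjusted p of 0.523. The log2 fold change was 1.56 ± 0.64 in males (adjusted p = 0.443) and 0.63 ± 0.57 in females (adjusted p = 0.999). Without female control replicate 2 the value over both sexes was 0.67 and that in females -0.22.

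Ednrb (chr14:103814625-103844402, minus strand) had 1401 and 2267 normalized counts in male cKO libraries, against 855, 555 and 1065 in male controls. Female cKO libraries had 844, 1858 and 1400.0, against 1466, 481 and 1677 in female controls. Both male cKO libraries were above every male control, and the female groups overlapped. The repeated library, labelled male cKO but counted as female, held 1893 and is no evidence on males. The log2 fold change of Ednrb was 0.73 ± 0.32 over both sexes (unadjusted p = 0.0358, limma adjusted p = 0.546), 1.16 ± 0.48 in males (adjusted p = 0.428) and 0.30 ± 0.43 in females (adjusted p = 0.999). Without female control replicate 2 the values were 0.45 over both sexes and -0.27 in females.

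**Figure D2:**
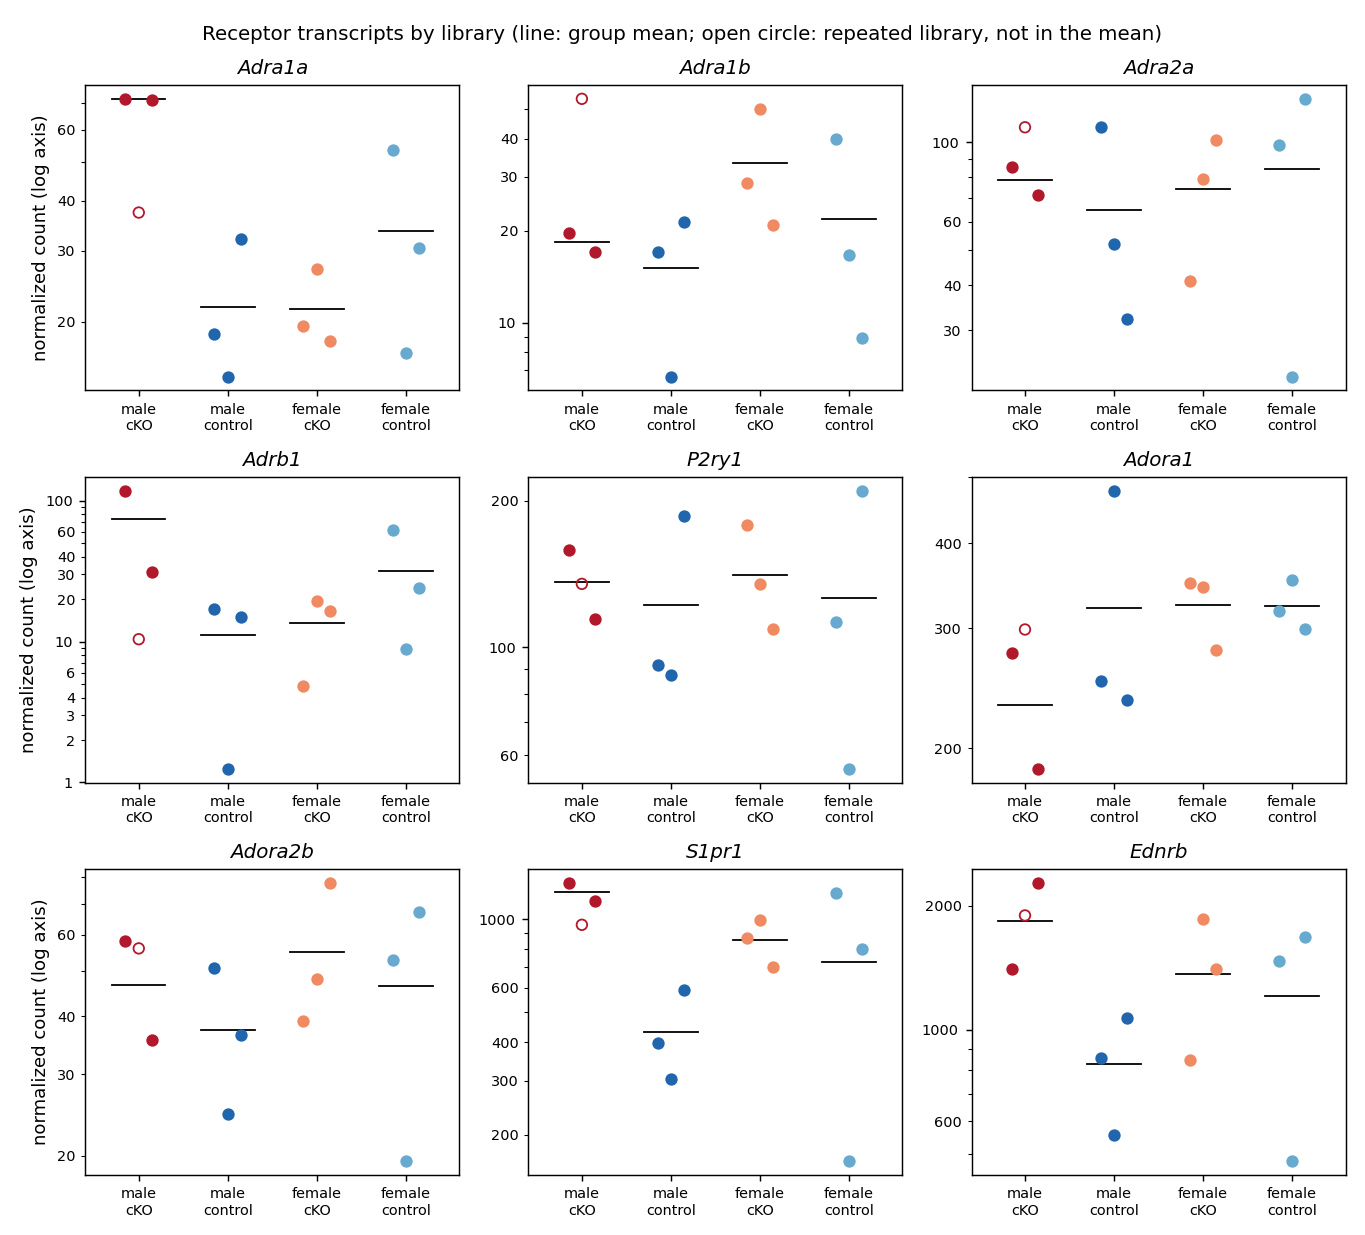
Normalized counts of the 9 receptor genes in each library, on log axes, by group, with the group mean as a line and the repeated library labelled male cKO as an open circle outside the mean. The filled male cKO points lie above all male control points for Adra1a, Adrb1, S1pr1 and Ednrb, and cKO and control points overlap in females for all 9.

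Over both sexes, none of the 9 receptors passed the test at an adjusted p of 0.05, and neither did any other gene, a background of 0.0% of 13108. At an unadjusted p under 0.05 there were 2 of 9 receptors, S1pr1 and Ednrb, against 8.57% of all genes tested. Log2 fold changes were above 0 for 8 of the 9, against 48.3% of all genes, and their median was 0.57, against -0.02 for all genes. Exact permutation of the group labels within each sex (200 arrangements, two-sided) gave p = 0.075 for S1pr1 and p = 0.125 for Ednrb, and 0.225 to 0.615 for the others.

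In males, 4 receptors had an unadjusted p under 0.05, Adra1a, Adrb1, S1pr1 and Ednrb, against 9.7% of all genes, and the same 4 were above all male controls in both male cKO libraries, against 12.7% of all genes. None of the 9 lay below all male controls in both, against 14.1%. Log2 fold changes were above 0 for 8 of 9, against 48.1%. None passed the adjusted threshold, and 0.0% of genes did. With 2 against 3 libraries the smallest exact permutation p is 0.1, which these 4 reached. In females none of the 9 had an unadjusted p under 0.05, against 3.9% of all genes, and none separated the groups, against 4.39% of genes above and 4.75% below. Log2 fold changes were above 0 for 7 of 9, against 49.5% of all genes.

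The difference between the sexes was tested directly as the female effect minus the male effect. It was -3.81 ± 1.55 for Adrb1 on the log2 scale (unadjusted p = 0.0231, limma adjusted p = 0.882) and -2.24 ± 1.09 for Adra1a (unadjusted p = 0.0521, adjusted p = 0.895). With 1 library left out in turn the Adrb1 difference ran from -4.74, without male cKO replicate 3, to -2.83, without male control replicate 2. It was -2.99 with all 12 libraries and -1.95 with the astrocyte marker mean as a covariate, and with that covariate the Adra1a difference was -1.23. For S1pr1 it was -0.93, with a 95% interval of -2.78 to 0.93, and for Ednrb -0.86, with an interval of -2.21 to 0.48. Of the 9 receptors, 1 had an unadjusted p under 0.05, against 5.58% of all genes, and none passed the adjusted threshold, where 0.0% of genes did. Between female and male controls, none of the 9 passed the test, where 0.0381% of genes did, and the lowest unadjusted p among them was 0.154, for Adrb1, against 1.83% of genes under 0.05.

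**Figure D3:**
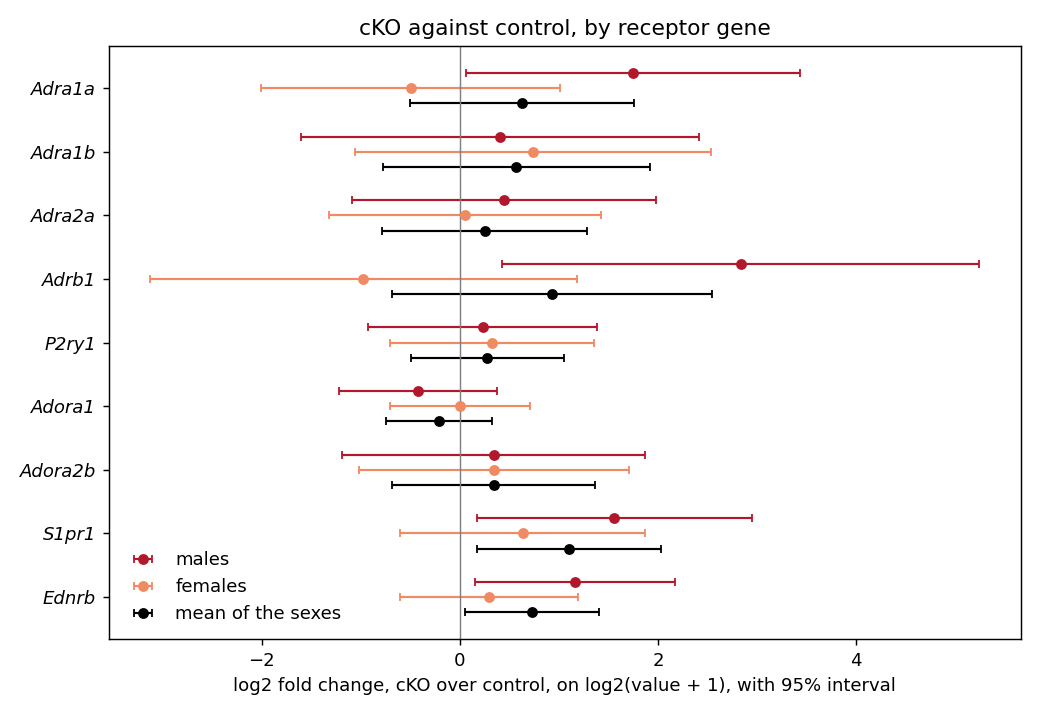
Log2 fold changes of cKO over control on the log2(value + 1) scale for each receptor, with 95% intervals from limma, in males (red), females (orange) and as the mean of the sexes (black). The male intervals of Adra1a, Adrb1, S1pr1 and Ednrb lie above 0, all female intervals cross 0, and no value passed adjustment over 13108 genes.

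The astrocyte marker level differed between the same groups as the receptors, without a call for any marker. Its mean log2 level was higher by 1.58 in male cKO than in male control libraries and by 0.11 in female cKO than in female control libraries. All 20 markers had a log2 fold change above 0 in males and 15 of 20 in females. Markers of other cells differed in level too: in males the mean log2 level of 14 oligodendrocyte markers was -0.81 in cKO relative to control libraries, that of 12 microglial markers -0.77, that of 12 endothelial markers 0.54 and that of 9 fibroblast markers 0.98. In females these differences were -0.34, 0.61, 0.38 and 0.18. Blood cell markers differed by -1.01 in males and -0.43 in females, and mural markers by 0.50 and -0.54. In males and females, neuron markers differed by -0.45 and 0.62, oligodendrocyte precursor markers by -0.50 and 0.21, and ependymal markers by -0.28 and -0.11. Most oligodendrocyte markers moved the same way: in males 12 of the 14 had a log2 fold change below 0 and 2 above, at a median of -1.01. In females 12 of the 14 were also below 0 and 2 above. Mbp, 1 of the 14, was not lower in male cKO libraries. It had 99980.5 and 317965 normalized counts there, against 44774, 43566 and 161650 in male controls. The part of microglia, fibroblasts, blood, mural, neuronal, precursor and ependymal cells in the receptor results was not tested.

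Across the 11 libraries, 4 of the 9 receptors tracked the mean of the 20 astrocyte markers, of which none is a receptor described here. The share of all tested genes that track this mean as closely was not computed, here or in the subsets below. The relation therefore cannot be called particular to these receptors. Pearson's r was 0.943 for Ednrb (Spearman's rho 0.936), 0.910 for S1pr1 (rho 0.855), 0.817 for Adra1a (rho 0.855) and 0.768 for Adrb1 (rho 0.818). Permutation p-values for r, from 100000 resamples and adjusted over 9 relations, were 0.00018 for Ednrb, 0.000675 for S1pr1, 0.00894 for Adra1a and 0.00916 for Adrb1, and those for rho were 0.00072, 0.0045, 0.0045 and 0.0076. Without the 2 libraries farthest from the median, male control replicate 2 and female control replicate 2, r was 0.879 for Ednrb, 0.875 for S1pr1, 0.761 for Adra1a and 0.586 for Adrb1.

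The relation of these 4 was also present among the 6 control libraries alone. There r was 0.958 for Ednrb, 0.910 for S1pr1, 0.933 for Adra1a and 0.840 for Adrb1, each with an exact permutation p of 0.0344 after adjustment over the 9. Within the 6 female libraries r was 0.949 for Ednrb (exact permutation p adjusted 0.025) and 0.891 for S1pr1 (adjusted 0.1), 0.758 for Adra1a (0.158) and 0.688 for Adrb1 (0.163). No correlation was computed within the 5 male or the 5 cKO libraries.

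The other receptors did not track the markers past the threshold. P2ry1 had r = 0.623 and Adora2b r = 0.599, with adjusted permutation p of 0.0734 and 0.0791, and these were 0.237 and -0.0052 without the same 2 libraries, so both rested on them. Adra2a had r = 0.494, Adra1b 0.477 and Adora1 -0.513, with adjusted permutation p of 0.137, 0.139 and 0.137. Subtracting the marker mean lowered the SD of the log2 level over libraries to 0.29 for Ednrb, against 0.71 before it, and to 0.39 for S1pr1, against 0.94. For Adora1 the SD was 1.06 after the subtraction, against 0.36 before it.

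**Figure D4:**
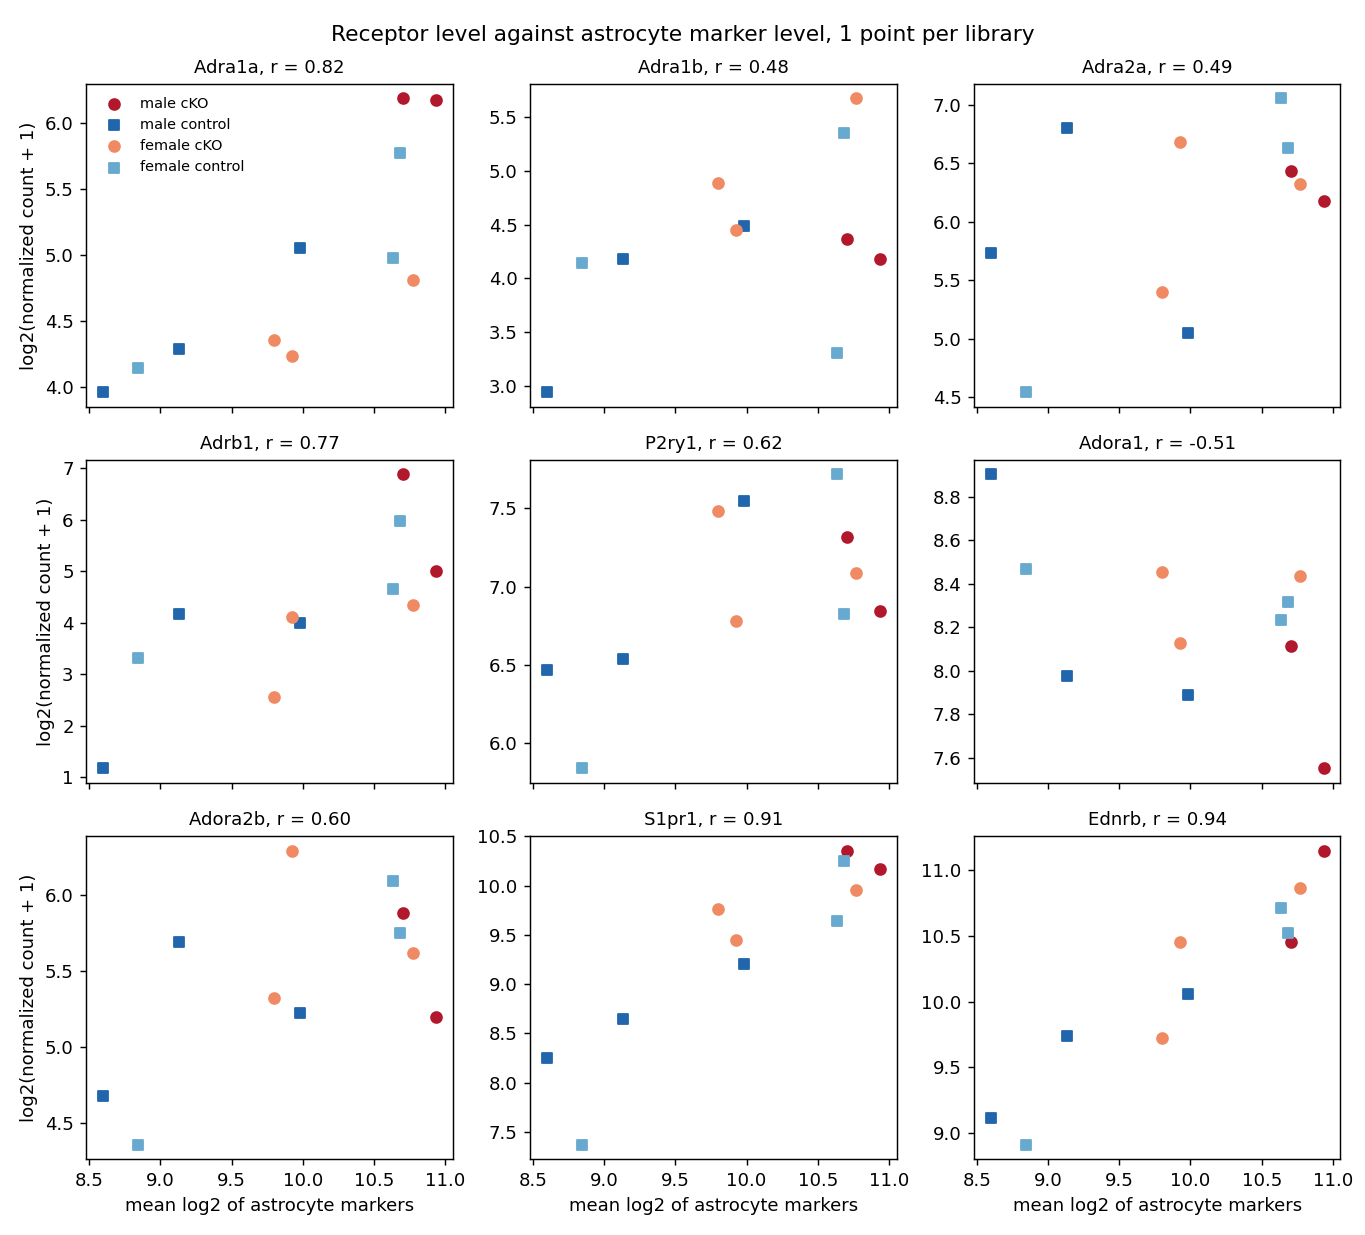
Log2(normalized count + 1) of each receptor against the mean log2 level of 20 astrocyte markers, 1 point per library, 11 libraries, with male cKO in red, male control in dark blue, female cKO in orange and female control in light blue. Points of Ednrb (r = 0.94) and S1pr1 (r = 0.91) run along a rising band that holds cKO and control libraries alike, and those of Adora1 (r = -0.51) do not rise.

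When the marker mean entered the limma model as a covariate, the fold changes over both sexes became 0.20 for S1pr1, -0.012 for Ednrb, -0.14 for Adrb1 and 0.043 for Adra1a on the log2 scale. In males they became -0.11 for S1pr1, -0.22 for Ednrb, 0.83 for Adrb1 and 0.66 for Adra1a. None passed the adjusted threshold with or without it. The covariate is itself measured in these libraries and differed between male cKO and control libraries, so the effect of genotype and the marker level cannot be told apart in males.

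The likeness of each receptor's pattern to other genes was measured by Pearson's r of log2 levels over the 11 libraries, as a description. Ednrb was most like Apoe (r = 0.984), the main apolipoprotein of astrocytes, then Mt1 (0.983), a metallothionein, and Chchd10 (0.978). S1pr1 was most like Scg3 (0.962), Sdc2 (0.961) and Lgi1 (0.959). Adra1a was most like Tmtc1 (0.926), Gstt3 and Csgalnact1, and Adrb1 most like Ttyh3 (0.948), Ndufa13 and Sema3g. For P2ry1 the leading genes were Ankrd29 (0.880), Timm8b and Mapk8ip2, for Adora1 Dip2b (0.916), Ncoa6 and Pim2, and for Adora2b Zkscan16 (0.896), Retsat and Idh3b. For Adra1b they were Zfp407 (0.903), Cacna2d3 and Dlg3, and for Adra2a Ndnl2 (0.897), B3galt1 and Fam19a4.

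Genes around the receptors gave no call either. In the 11 lists of receptor families, ligand handling and G protein signalling, 0 members passed over both sexes. The family lists hold the receptors described above too. S1pr1 is counted among the lysophospholipid receptors, Ednrb among the endothelin genes and P2ry1 among the P2Y and P2X genes. Of all genes tested, 48.3% had a log2 fold change above 0 over both sexes and 8.57% an unadjusted p under 0.05. Of 8 tested lysophospholipid receptors, 5 were higher and 3 lower, and 3 had an unadjusted p under 0.05. S1pr5, the oligodendrocyte S1P receptor, averaged 156 ± 59.4 normalized counts in male cKO libraries and 453 ± 237 in male controls, and 294 ± 138 in female cKO libraries and 368 ± 135 in female controls. Its log2 fold change was -0.91 ± 0.32 over both sexes (limma adjusted p = 0.459), opposite in sign to that of S1pr1. Lpar4 averaged 239 ± 51.3 in male cKO libraries and 40.2 ± 31.1 in male controls, but 31.8 ± 4.15 in female cKO libraries and 55.8 ± 45.2 in female controls.

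Of 6 tested endothelin genes 5 were higher and 1 lower over both sexes. Ece1, which cleaves the endothelin precursors, averaged 1613 ± 1035 normalized counts in male cKO libraries and 842 ± 76.6 in male controls, and 926 ± 198 in female cKO libraries and 820.2 ± 191 in female controls (limma adjusted p = 0.592 over both sexes). Edn2 had 0 reads. Of 5 adrenergic receptor genes listed and tested 5 were higher, at a median log2 fold change of 0.62, and 0 had an unadjusted p under 0.05. They were the described Adra1a, Adra1b, Adra2a and Adrb1 together with Adra2c, which was at 0 in 7 of the 11 libraries. Their count thus mostly repeats the directions of the described receptors. Of 8 tested P2Y and P2X genes 3 were higher and 5 lower, at a median of -0.47.

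Among 6 tested genes of noradrenaline uptake and breakdown, 3 were higher and 3 lower. Slc22a3, an extraneuronal monoamine transporter, averaged 5.13 ± 4.84 normalized counts in male cKO libraries and 38.5 ± 26.2 in male controls, and 4.64 ± 5.31 in female cKO libraries and 36.2 ± 23.0 in female controls. Its log2 fold change was -2.94 ± 0.82 over both sexes, with the smallest unadjusted p of that list, 0.00173, and a limma adjusted p of 0.439. Among 13 genes that handle extracellular nucleotides and adenosine, 8 were higher and 5 lower. Gja1, the astrocyte connexin 43 and 1 of the 20 astrocyte markers, had a log2 fold change of 1.10 ± 0.40, and Entpd2, which hydrolyses ATP to ADP, 0.85 ± 0.37, with adjusted p of 0.486 and 0.546.

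Downstream of the receptors, 11 of 15 tested Gq and phospholipase C genes were higher and 4 lower, at a median log2 fold change of 0.33 over both sexes. The IP3 receptor gene Itpr1 averaged 467 ± 161 normalized counts in male cKO libraries and 203 ± 54.3 in male controls, and 260.5 ± 77.1 in female cKO libraries and 223 ± 75.0 in female controls (limma adjusted p = 0.486 over both sexes). Of 26 cyclic AMP genes 15 were higher and 11 lower, at a median of 0.04. The Go subunit gene Gnao1 averaged 1162 ± 39.8 in male cKO libraries and 2057 ± 610 in male controls, and 1287 ± 331 in female cKO libraries and 2113 ± 386 in female controls, with a log2 fold change of -0.76 ± 0.21 and adjusted p of 0.439. Receptor kinases, arrestins and RGS proteins split evenly, 10 higher and 10 lower of 20. Sphingosine phosphate handling had 4 higher and 3 lower of 7.

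Promoter sequence was available from RefSeq (GRCm38.p6) for 7 of the 9 receptors, and Adra1a and S1pr1 had no entry. The windows printed are the 250 bases before the start, 5′ to 3′ on the gene's strand, for the pair of receptors with an entry that separated male cKO from male control libraries and for Adora1, which did not follow the astrocyte markers. Capitals mark matches, on either strand, to the cyclic AMP half-site TGACG, to the GC box GGGCGG and to the box with the letters CCAAT.
Ednrb, chr14:103843702-103843951, minus strand: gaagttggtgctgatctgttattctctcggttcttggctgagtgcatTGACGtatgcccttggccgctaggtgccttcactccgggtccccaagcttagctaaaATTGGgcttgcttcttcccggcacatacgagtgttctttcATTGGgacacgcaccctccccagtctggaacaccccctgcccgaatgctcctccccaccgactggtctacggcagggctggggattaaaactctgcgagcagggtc
Adrb1, chr19:56721867-56722116, plus strand: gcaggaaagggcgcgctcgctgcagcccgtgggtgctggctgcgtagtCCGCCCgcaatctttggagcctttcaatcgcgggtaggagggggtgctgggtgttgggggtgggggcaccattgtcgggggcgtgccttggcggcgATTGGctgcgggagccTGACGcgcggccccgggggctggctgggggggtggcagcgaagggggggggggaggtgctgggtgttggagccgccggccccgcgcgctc
Adora1, chr1:134235458-134235707, minus strand: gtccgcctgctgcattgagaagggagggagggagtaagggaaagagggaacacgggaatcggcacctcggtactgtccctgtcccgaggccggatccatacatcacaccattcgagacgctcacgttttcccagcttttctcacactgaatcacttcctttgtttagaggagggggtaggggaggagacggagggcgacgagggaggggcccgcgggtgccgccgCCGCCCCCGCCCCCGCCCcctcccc
None of these 3 windows overlaps an annotated exon of its gene, and that of Ednrb lies inside the annotated gene span, in an intron.

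Of 32851 RefSeq windows of the same length, 17.8% held TGACG, 32.7% GGGCGG and 33.8% CCAAT. The cyclic AMP half-site TGACG, which the full element TGACGTCA contains, occurred 1 time in the Ednrb and 1 time in the Adrb1 window. The CCAAT letters occurred 2 times in the Ednrb and 1 time in the Adrb1 window, and GGGCGG 1 time in the Adrb1 and 3 times in the Adora1 window. RefSeq gives Adora1 a second window, chr1:134234857-134235106 on the minus strand, which is not printed, overlaps 1 annotated exon and holds 0 matches to GGGCGG. The homeodomain core TAATTA, held by 4.84% of windows, the full element TGACGTCA, held by 1.55%, and TATAAA, held by 12.4%, were absent from these 3. The GC share was 56.8% in the Ednrb window, 74.0% in that of Adrb1 and 64.4% in that of Adora1, against a median of 52.4%. These letters describe the windows only.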

How the data were processed

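RNA of sorted spinal cord astrocytes was sequenced in paired-end mode after Trio RNA-Seq V2 library construction, per the labels' protocols. The submitters' processing notes name the mm10 build, STAR 2.5.0a, DESeq2 1.20.0, FastQC 0.10.1 and MultiQC 0.9, with no role or order. How reads were counted, over which annotation and whether by strand is not given in the sources used here. The authors deposited 1 normalized signal per gene and library, here called a normalized count. Within each library 100% of its non-zero values were whole multiples of 1 step, within 0.01 reads, so whole reads and depth were recovered.

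The test was limma 3.58.1 (R 4.3.3) with trend and robust variance on log2(value + 1), with 1 mean per group, fitted to 11 libraries and the 13108 entries that reached a value of 10 in 3 or more libraries. Fold changes are on that scale, which understates changes of low genes. The plan allowed for raw counts and edgeR, but the table held normalized values. Benjamini-Hochberg adjusted p-values were called at 0.05. Single receptors were also tested by two-sided exact permutation of labels within sex. The mean astrocyte marker level per library was related to each receptor by permutation of 100000 resamples, or exactly within 6 libraries. Alternatives were edgeR 4.0.16 and DESeq2 1.42.0 on recovered reads, and other libraries, scalings, filters and covariates. Scripts were tested on simulated data.

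Gene positions and exon lengths came from GENCODE on GRCm38, matched by symbol, and promoters from RefSeq. Named were the 9 receptors, up to 4 genes per receptor-related list with the smallest unadjusted p, and 3 genes most like each receptor, leaving out predicted genes, Riken clones and date-like symbols. Of the list genes named by this rule only some are printed, and some list genes are not reported here. The receptors, gene lists and tests were chosen with earlier results of these data known. Replicate numbers were not treated as pairs. Deviations of same-numbered cKO and control libraries were little correlated, but so few libraries cannot decide whether they were paired.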

Additional observations from a re-analysis of the deposited data

How the results depend on the processing

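None of the 9 receptors passed an adjusted p of 0.05 in any of 945 fits (9 receptors, 5 comparisons, 21 alternatives). Of these fits 861 kept the direction and 84 reversed it, in 31 of the 45 results. Counts of genes called by limma were 0 over both sexes, in males, in females and for the difference of the sexes, and 5 for female against male controls, at unadjusted p under 0.05 in 1123, 1271, 511, 731 and 240 genes. DESeq2 on recovered reads called 29, 84, 2, 11 and 6, and edgeR 0, 0, 0, 0 and 5, with unadjusted p under 0.05 in 1272, 1310, 566, 863 and 314. In males 14 genes passed without both cKO replicate 3 libraries. That fit kept only 1 male cKO library, replicate 1, so the spread within that group could not be measured. The fits below without male cKO replicate 1 or without male cKO replicate 3 have the same limit. No conclusion is drawn from calls of these fits that use the male cKO group. Female against male controls gave 0 calls with all 12 libraries, 0 with female cKO replicate 2 left out in place of the one labelled male cKO replicate 2, and 0 with the replicate block. Leaving out 1 library gave 0 to 2 calls over both sexes, 0 to 22 in males (22 without male cKO replicate 3, 11 without female control replicate 2), 0 to 1 in females, 0 to 1 for the difference and 2 to 6 between controls.

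With the astrocyte marker mean as a covariate, log2 fold changes over both sexes turned to -0.29 for Adra2a, -0.14 for Adrb1, -0.26 for P2ry1, -0.12 for Adora2b and -0.012 for Ednrb. In males they turned to -0.38 for Adra1b, -0.56 for Adra2a, -0.77 for P2ry1, -0.53 for Adora2b, -0.11 for S1pr1 and -0.22 for Ednrb, and in females to -0.015 for Adra2a. The female minus male effect turned to 0.55 for Adra2a, 0.63 for S1pr1 and 0.42 for Ednrb. The female minus male level of controls turned to -0.034 for Adra1a, -0.0041 for Adra1b, -0.30 for Adra2a, -0.25 for Adora2b, -0.48 for S1pr1 and -0.31 for Ednrb. The cause was not tested.

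With the repeat resolved the other way, females gave -0.041 for Adra2a and -0.047 for Adora1, and the difference of effects was -0.51 for Adra1b and -0.030 for Adora2b, and with all 12 libraries -0.17 for Adra1b and -0.0925 for Adora2b. In females edgeR gave -0.22 for Adra2a and -0.018 for Adora1, DESeq2 -0.19 for Adra2a, TMM scaling -0.029 for Adora1, and leaving out both cKO replicate 3 libraries -0.22 for Adra2a. The difference of effects for Adora2b was -0.0079 with a pseudocount of 10, -0.090 by edgeR, -0.088 by DESeq2 and -0.61 without both cKO replicate 3 libraries, and for P2ry1 -0.0093 by edgeR and -0.0065 by DESeq2. Between controls P2ry1 was 0.11 by edgeR and 0.10 by DESeq2.

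The correlation of deviations of same-numbered libraries was 0.032 and -0.011 in males and -0.062, -0.110 and -0.033 in females. Male control replicate 2 had no partner. With 2 male cKO libraries the deviations mirror each other, so the male values are not separate checks. Groups of 2 or 3 libraries cannot show whether same-numbered libraries were paired. The replicate block left unadjusted p under 0.05 in 636 genes over both sexes, 690 in males, 383 in females, 438 for the difference and 320 between controls. Under it Adra1b was -0.060 in males, and between controls Adra2a was -0.44, P2ry1 0.084 and Adora2b -0.39. It changed no call of a receptor.

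Leaving out 1 library at a time, the log2 fold change over both sexes ran from -0.14 to 0.49 for Adra2a, and in males from -0.060 to 0.71 for Adra1b, -0.0072 to 0.58 for P2ry1 and -0.0047 to 0.68 for Adora2b. In females it ran from -0.71 to 0.54 for Adra2a, -0.15 to 0.79 for P2ry1, -0.056 to 0.11 for Adora1, -0.18 to 0.69 for Adora2b, -0.22 to 1.22 for S1pr1 and -0.27 to 0.63 for Ednrb, and each of these lowest values except that of Adora1 came without female control replicate 2. The difference of effects ran from -0.15 to 0.87 for Adra1b, -1.16 to 0.10 for Adra2a, -0.38 to 0.56 for P2ry1 and -0.52 to 0.35 for Adora2b. Between controls the ranges were -0.14 to 0.88 for Adra1b, -0.27 to 0.98 for Adra2a, -0.52 to 0.42 for P2ry1, -0.10 to 0.41 for Adora1, -0.15 to 0.72 for Adora2b and -0.19 to 1.25 for S1pr1.

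With all 12 libraries the relation to astrocyte markers was past the threshold for P2ry1 and Adora2b, at r = 0.617 for each and an adjusted permutation p of 0.0496. That set treats the repeated sample as a separate point, so these p-values are too small. Adrb1, Adra1b and Adra1a, with the fewest reads, were the members whose values depth limits most. P-values over 5 cKO and 6 control libraries do not show that a receptor was equal between groups.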

Other observations

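After the receptor values had been seen, the receptors were also set against the mean log2 levels of 14 oligodendrocyte markers and 12 endothelial markers over the 11 libraries, 18 relations in all. Adora1, whose transcript is also known in oligodendrocyte lineage cells, had r = 0.717 and Spearman's rho 0.827 with the oligodendrocyte markers, with permutation p-values adjusted over the 18 of 0.0570 for r and 0.0490 for rho, and r was 0.641 without the 2 libraries farthest from the median. The 8 other receptors had a negative r with them. It was -0.734 for Adrb1 (rho -0.645), -0.733 for Ednrb (rho -0.664), -0.657 for S1pr1 (rho -0.573) and -0.656 for Adra1a (rho -0.736), with adjusted permutation p-values of 0.0570 to 0.0579 for r and 0.104 to 0.129 for rho. Without the 2 farthest libraries r was -0.272 for Adrb1, -0.716 for Ednrb, -0.489 for S1pr1 and -0.384 for Adra1a.

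Adora2b had its strongest relation with the endothelial markers, at r = 0.760 and rho 0.673 (adjusted permutation p 0.0570 and 0.104), and r was 0.490 without the 2 farthest libraries. For the endothelial markers r was also 0.684 for Ednrb, 0.676 for Adrb1, 0.670 for S1pr1 and 0.644 for P2ry1, each with an adjusted permutation p of 0.0579, and without the 2 farthest libraries it was 0.316, 0.469, 0.272 and 0.328 in that order. None of the 18 had an adjusted permutation p for r under 0.05, and all of them share the same 11 libraries with the astrocyte marker relation. The share of all genes with relations as strong was not computed for these lists either.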
